A study of Mus musculus with 18 samples.

Results

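The pituitary arrays of single mice (4 of the 18 arrays in the series) were compared with the 4 hypothalamus and 4 ovary arrays from the same mice. They were chosen by their titles, which name a mouse of high or low ovulation. The other 6 arrays, which hold RNA pooled from 8 mice each, did not enter the tests and are described on their own below. All mice were females of the strain given as BABL/c, taken as 10 littermate pairs that were split between a stress and a control group and superovulated at 9 weeks of age. The stress group had been transported over 1000 km for about 10 h at 50 km/h and was kept in the same laboratory as the control group otherwise. Each of the 3 tissues is represented by the stressed mouse with the most oocytes, the stressed mouse with the fewest, the control mouse with the most and the control mouse with the fewest. Values of single arrays are given in that order throughout. Each condition is 1 mouse, every mouse was superovulated, and the labels do not say whether the pituitary was taken with its posterior lobe. Total RNA was hybridized to Mouse Gene 2.0 ST arrays of Affymetrix, and values are log2 signals, on which a difference of 1 is 2-fold. Levels of different genes come from different probes and are not compared with each other.

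The pituitary joins a glandular part to a neural part. The anterior and intermediate lobes hold somatotropes, lactotropes, corticotropes, melanotropes, gonadotropes and thyrotropes, each making its own peptide or glycoprotein hormone under releasing and inhibiting factors from the hypothalamus. The gonadotropins of the gland act on ovarian follicles, and ovarian steroids feed back on both the gland and the hypothalamus. The posterior lobe holds axons of hypothalamic neurons and the glia around them, so hypothalamic messages can appear in a whole gland as well.

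Arrays of a tissue resembled each other more than arrays of different tissues. Pearson correlations over the 22180 genes ran from 0.968 to 0.985 among pituitaries, from 0.885 to 0.913 between pituitary and hypothalamus and from 0.874 to 0.898 between pituitary and ovary. The 7 measured pituitary markers read above every array of the other tissues on all 4 pituitary arrays (Pou1f1, the eighth, was not analysed here). The 7 measured hypothalamus markers and the 8 ovary markers were likewise highest in their own tissue. As a guide to low readings, the lower quartile of all genes lay between 4.03 and 4.18 on the 12 arrays. The file gives no detection call, so a reading near that level was not tested against background. In whole tissue, fewer cells of a type and less RNA per cell cannot be told apart.

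A gene was called higher or lower in pituitary than in both other tissues when limma's moderated test, with the mouse as a block, gave a Benjamini-Hochberg adjusted p under 0.05 against each of them with the same sign. By this rule 1623 of 22180 genes (7.32%) were higher in pituitary than in both, and 1391 (6.27%) were lower than in both. Requiring a difference of at least 2-fold against each left 539 higher (2.43%) and 322 lower (1.45%). Against hypothalamus alone 4004 genes were higher (18.1%) and 4207 lower (19%), and against ovary alone 3927 were higher (17.7%) and 4524 lower (20.4%). Another 747 genes lay above hypothalamus and below ovary, and 960 lay below hypothalamus and above ovary. For 10239 genes (46.2%) neither comparison gave a call. All 4 pituitary values lay above the 8 others in 1282 of the 1623 genes (5.78% of all genes), and below them in 1137 of the 1391 (5.13%). Over all genes, called or not, 6.65% had every pituitary value above the 8 others and 6.04% every one below. Median differences over all genes were 0.04 against hypothalamus and 0.01 against ovary. The p-values measure how much the tissue differences varied among these 4 mice of mixed treatment and ovulation class. Differences between mice that all tissues share were taken out by the block.

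**Figure D1:**
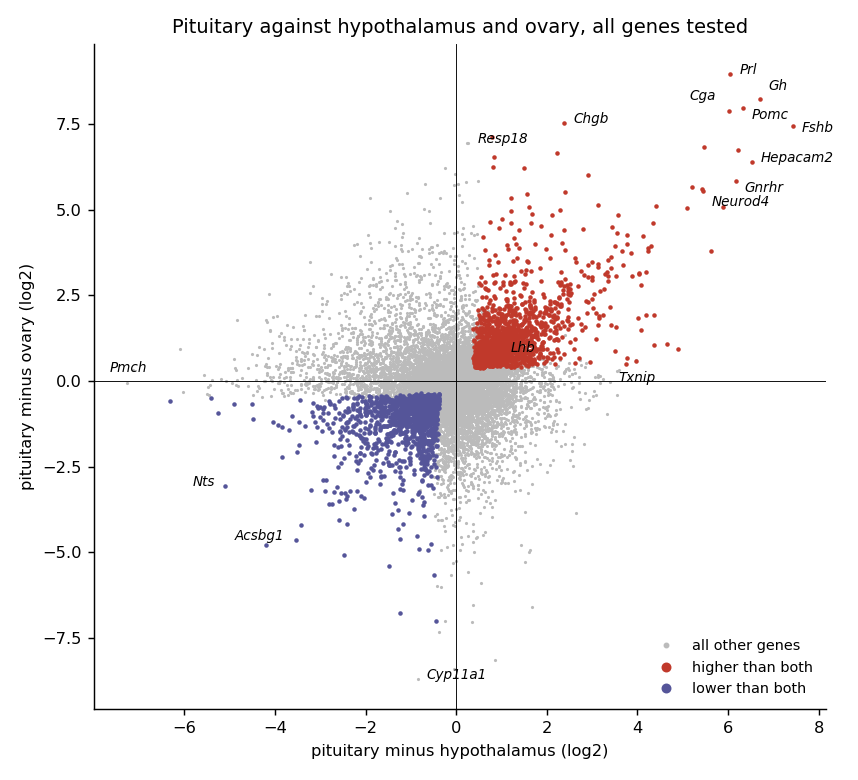
Each point is 1 of 22180 genes, placed by the pituitary minus hypothalamus difference (horizontal axis, log2) and the pituitary minus ovary difference (vertical axis, log2). Red points are the 1623 genes higher than both tissues and blue points the 1391 lower than both, with hormone genes at the upper right and genes such as Acsbg1 and Nts at the lower left.

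The hormone genes of the anterior and intermediate lobes stood far from both tissues. All 7 measured hormone genes were higher in pituitary than in both (background 7.32%), with a median difference of 6.05 against hypothalamus and 7.89 against ovary. Fshb, the beta subunit of follicle-stimulating hormone, read 11.70, 11.98, 12.15 and 12.05 in pituitaries, 4.47, 4.47, 4.49 and 4.74 in hypothalami and 4.14, 4.71, 4.85 and 4.46 in ovaries. Hypothalamus and ovary values overlapped, and every pituitary value lay far above them. Its pituitary excess was 7.43 ± 0.16 against hypothalamus (SE, adjusted p = 6.94e-12) and 7.43 ± 0.16 against ovary (adjusted p = 2.90e-12).

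Cga encodes the alpha subunit shared by the glycoprotein hormones. It read 12.27, 12.58, 12.41 and 12.55 in pituitaries, 6.38, 6.36, 6.23 and 6.72 in hypothalami and 4.77, 4.40, 4.46 and 4.63 in ovaries, a difference of 6.03 and 7.89. Tshb, the beta subunit of thyroid-stimulating hormone, read 10.89, 11.04, 11.42 and 10.71 in pituitaries, 5.60, 5.29, 5.66 and 5.63 in hypothalami and 3.86, 4.46, 4.14 and 4.23 in ovaries, and differed by 5.47 and 6.84. In both genes all pituitary values lay more than 5 log2 units above the highest hypothalamus value. Lhb, the beta subunit of luteinizing hormone, had the smallest excess of the group. It read 5.84, 6.20, 6.19 and 6.14 in pituitaries, 5.21, 5.08, 5.11 and 5.08 in hypothalami and 4.62, 4.67, 4.99 and 4.97 in ovaries, and was higher by 0.97 ± 0.15 (SE, adjusted p = 0.000141) and 1.28 ± 0.15 (adjusted p = 1.05e-05).

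Pomc, the precursor of ACTH and melanocyte-stimulating hormone, read 12.64, 12.73, 12.97 and 12.91 in pituitaries, 6.49, 5.82, 6.57 and 7.08 in hypothalami and 5.03, 4.51, 4.77 and 5.14 in ovaries, and differed by 6.32 and 7.95. Gh, growth hormone, read 13.66, 13.62, 13.65 and 13.62 in pituitaries, which is the highest reading of any gene on each of these arrays. Its readings were 7.81, 6.15, 5.67 and 8.14 in hypothalami and 5.60, 5.09, 5.90 and 5.01 in ovaries. Prl, prolactin, read 13.56, 13.60, 13.55 and 13.50 in pituitaries, 8.68, 6.55, 5.53 and 9.26 in hypothalami and 4.90, 3.63, 4.81 and 5.09 in ovaries. Gh and Prl were uneven among hypothalami, where the stressed high-ovulation and the control low-ovulation mouse read above the other 2. Cga had the same order of hypothalami with a smaller spread, and Pomc and Fshb were highest in the control low-ovulation mouse. Tshb and Lhb did not separate those arrays in the same way. The source of these readings was not tested. The differences were 6.70 ± 0.40 and 8.24 for Gh, and 6.05 ± 0.49 and 8.95 for Prl. Both genes read at or near the top of the arrays' range in pituitary, and the file carries no saturation flag, so these differences may be lower bounds. Without those 2 hypothalami the difference from hypothalamus was 7.77 for Gh and 7.33 for Prl, in a fit added after the values were seen.

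**Figure D2:**
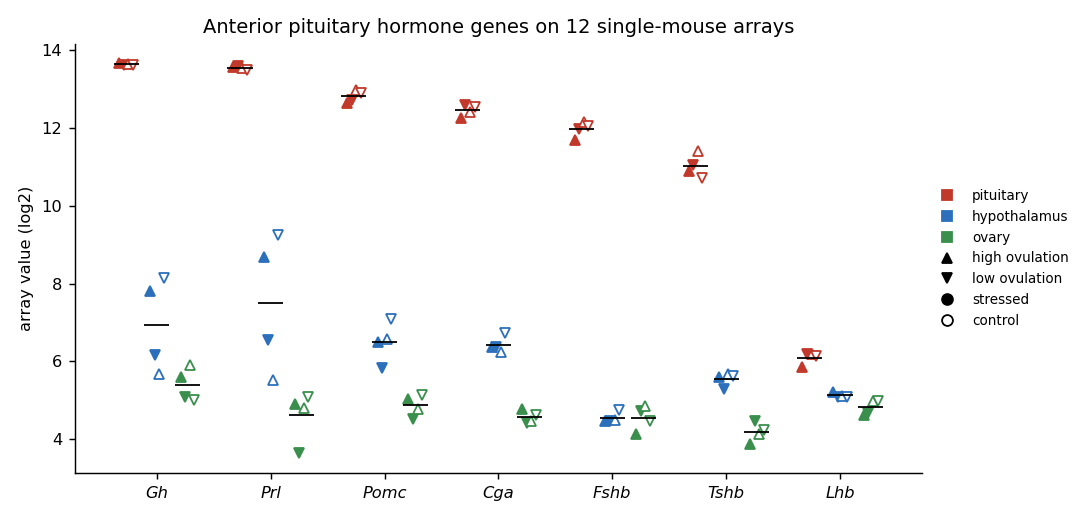
Array values (log2) of the 7 hormone genes for pituitary (red, left), hypothalamus (blue, middle) and ovary (green, right), 4 mice each; filled marks are stressed mice, open marks control mice, triangles pointing up high and down low ovulation, and lines the means. Pituitary values lie above all others for each gene, and hypothalamus values of Gh and Prl spread over more than 2 log2 units.

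The promoters of 6 hormone genes were in RefSeq's table for GRCm38.p6 (300 bases around each transcription start). They were searched on both strands for TATNCAT (a Pit-1 type motif), TAATCC (a Pitx type), CAAGGTCA (an SF-1 type) and CATCTG (an E-box type), which are motifs of factors known to act in hormone-producing cells. The 3 promoters that held a match are shown, so that the place of each match can be seen. Capitals mark the matches, and the sequences run 5′ to 3′ on the strand of the gene.
Prl (chr13:27057320-27057619, plus strand): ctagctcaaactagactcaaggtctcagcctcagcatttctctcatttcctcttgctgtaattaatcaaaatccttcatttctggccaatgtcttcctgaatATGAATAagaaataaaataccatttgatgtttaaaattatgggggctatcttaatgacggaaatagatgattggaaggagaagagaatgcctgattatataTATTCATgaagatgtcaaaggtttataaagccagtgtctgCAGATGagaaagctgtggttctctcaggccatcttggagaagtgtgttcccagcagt
Pomc (chr12:3954695-3954994, plus strand): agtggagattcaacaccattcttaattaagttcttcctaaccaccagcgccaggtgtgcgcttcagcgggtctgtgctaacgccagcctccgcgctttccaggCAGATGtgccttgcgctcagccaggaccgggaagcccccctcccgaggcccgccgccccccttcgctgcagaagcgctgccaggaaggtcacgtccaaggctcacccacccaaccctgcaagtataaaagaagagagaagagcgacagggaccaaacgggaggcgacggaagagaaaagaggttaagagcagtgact
Lhb (chr7:45420696-45420995, plus strand): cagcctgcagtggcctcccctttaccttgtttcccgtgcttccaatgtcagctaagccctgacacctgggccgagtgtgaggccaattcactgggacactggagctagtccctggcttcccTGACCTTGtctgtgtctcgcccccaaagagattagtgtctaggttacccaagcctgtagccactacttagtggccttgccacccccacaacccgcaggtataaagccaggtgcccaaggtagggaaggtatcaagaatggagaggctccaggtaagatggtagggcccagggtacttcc
In Prl, TATNCAT matched at positions -47 to -41 and, on the other strand, at -148 to -142, and CATCTG matched on the other strand at -7 to -2, counted from the transcription start. In Pomc, CATCTG matched on the other strand at -147 to -142. In Lhb, CAAGGTCA matched on the other strand at -129 to -122. None of the 4 motifs was found in these windows of Cga, Fshb or Tshb. Such matches are common in promoters at large: 8.84% of the 32851 promoters held the Pit-1 type motif, 7.06% the Pitx type, 1.56% the SF-1 type and 17.2% the E-box type. Counted by gene, with a match in any of its promoters, the shares were 8.42%, 7.71%, 1.48% and 16.7% of 16990 tested genes. Among the 1220 genes higher than both tissues with a promoter entry the shares were 7.46%, 7.87%, 1.15% and 15.6%. Each was within 2 percentage points of the share of tested genes. Among the 1095 genes lower than both they were 3.38%, 6.67%, 1.83% and 12.5%. These shares are descriptions and were not tested. A match describes the letters of a window and is not evidence of a bound site.

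Transcription factors of pituitary development and cell identity formed the second group. Of 20 measured, 13 were higher than in both tissues and none lower (background 7.32% and 6.27%), with medians of 0.87 and 1.32. Neurod4, a basic helix-loop-helix factor, led with 9.32, 9.42, 9.54 and 9.09 in pituitaries, 4.15, 3.42, 4.26 and 3.78 in hypothalami and 4.04, 3.90, 3.76 and 3.56 in ovaries. It differed by 5.44 ± 0.17 (SE, adjusted p = 9.62e-11) and 5.53 ± 0.17 (adjusted p = 5.11e-11). Tbx19, the T-box factor required for Pomc transcription, read 8.15, 8.07, 8.59 and 8.65 in pituitaries, 4.90, 4.71, 5.04 and 5.16 in hypothalami and 5.44, 4.14, 4.62 and 4.77 in ovaries. Both factors kept all pituitary values more than 2 log2 units above any other.

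Six6, a homeobox factor of the early pituitary and retina, read 8.74, 9.23, 9.58 and 9.94 in pituitaries, 5.59, 6.02, 6.30 and 5.80 in hypothalami and 4.86, 4.46, 4.97 and 5.24 in ovaries, and differed by 3.44 and 4.49. The stressed pituitaries lay below the control pituitaries, a split that the interaction test described further on did not pass. Eya1, a partner of sine oculis type factors, differed by 3.5 and 3.95. The LIM homeobox gene Lhx3, needed to form the gland, differed by 3.0 and 3.03. Pitx1, a homeobox factor expressed throughout the gland, differed by 2.04 and 1.93. Pax7, which marks melanotropes, differed by 1.63 and 1.95, and Zbtb20, a zinc finger factor needed for lactotropes, by 1.66 and 1.10. Gata2, of gonadotropes and thyrotropes, differed by 1.80 and 0.92.

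Smaller differences from both tissues were called for Rxrg (0.84 and 2.85), a retinoid X receptor, Six3 (0.70 and 1.54), Insm1 (0.58 and 0.60), a factor of endocrine differentiation, and Hesx1 (0.44 and 0.56), an early repressor in the pituitary primordium. Calls of Hesx1 and Insm1 were lost when single mice or arrays were left out (for Hesx1 against hypothalamus, any mouse except the stressed high-ovulation one), and Six3 lost its call against hypothalamus without the control low-ovulation mouse. Nr5a1 (steroidogenic factor 1) and Foxl2, factors that gonadotropes share with ovarian somatic cells, lay between the tissues. Nr5a1 read 6.56 to 7.10 in pituitaries, 5.62 to 6.24 in hypothalami and 8.83 to 9.41 in ovaries, and Foxl2 read 5.77 to 6.35, 5.14 to 5.68 and 8.23 to 8.50 in the same 3 tissues. Isl1 was higher than in ovary (2.21) but not than in hypothalamus (adjusted p = 0.338), and so was Otx2 (0.78 against ovary, adjusted p = 0.978 against hypothalamus). Foxp2, Lhx4 and Neurod1 passed neither test. Their 95% intervals against hypothalamus were -0.30 to 0.58, -0.27 to 0.43 and -0.61 to 0.38.

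Receptors for hypothalamic factors were a more divided group. Of 15 measured, 4 were higher than in both tissues (26.7%, against 7.32% of all genes) and none lower. Medians were -0.07 against hypothalamus and 0.84 against ovary. Gnrhr, the receptor of gonadotropin-releasing hormone, read 9.85, 9.81, 9.25 and 9.75 in pituitaries, 3.72, 3.34, 3.54 and 3.37 in hypothalami and 3.85, 3.71, 3.51 and 4.28 in ovaries. Its differences were 6.17 ± 0.17 (SE, adjusted p = 3.76e-11) and 5.83 ± 0.17 (adjusted p = 3.44e-11). Ghrhr, the receptor of growth hormone-releasing hormone, read 10.09, 9.51, 9.46 and 10.31 in pituitaries, 4.42, 4.49, 4.10 and 4.63 in hypothalami and 4.26, 4.10, 4.25 and 4.31 in ovaries. Neither receptor overlapped between pituitary and the other tissues.

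Drd2, the dopamine receptor through which lactotropes are inhibited, read 10.51, 10.80, 10.56 and 11.33 in pituitaries, 8.53, 8.46, 8.22 and 8.36 in hypothalami and 5.35, 5.41, 5.18 and 5.27 in ovaries, so that hypothalamus took a middle place. Avpr1b, the vasopressin receptor of corticotropes, was higher by 1.70 and 1.86. Another 5 members exceeded ovary without exceeding hypothalamus. Of these, Crhr1, the corticotropin-releasing hormone receptor, read 5.77 to 6.24 in pituitaries and 5.94 to 6.24 in hypothalami. Trhr, the thyrotropin-releasing hormone receptor, read 5.43 to 6.01 in pituitaries, within the 4.90 to 6.62 of hypothalami. Ghsr (ghrelin receptor) and Sstr3 (somatostatin receptor) exceeded ovary by 0.69 and 0.84, while Adcyap1r1, the PACAP receptor, exceeded ovary by 1.63 and was lower than in hypothalamus (-2.55). Galr1, Sstr2 and Vipr2 were lower than in hypothalamus (-2.46, -1.82 and -0.67), Oxtr and Sstr1 were lower than in ovary (-2.27 and -2.26), and Sstr5 passed neither test.

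**Figure D3:**
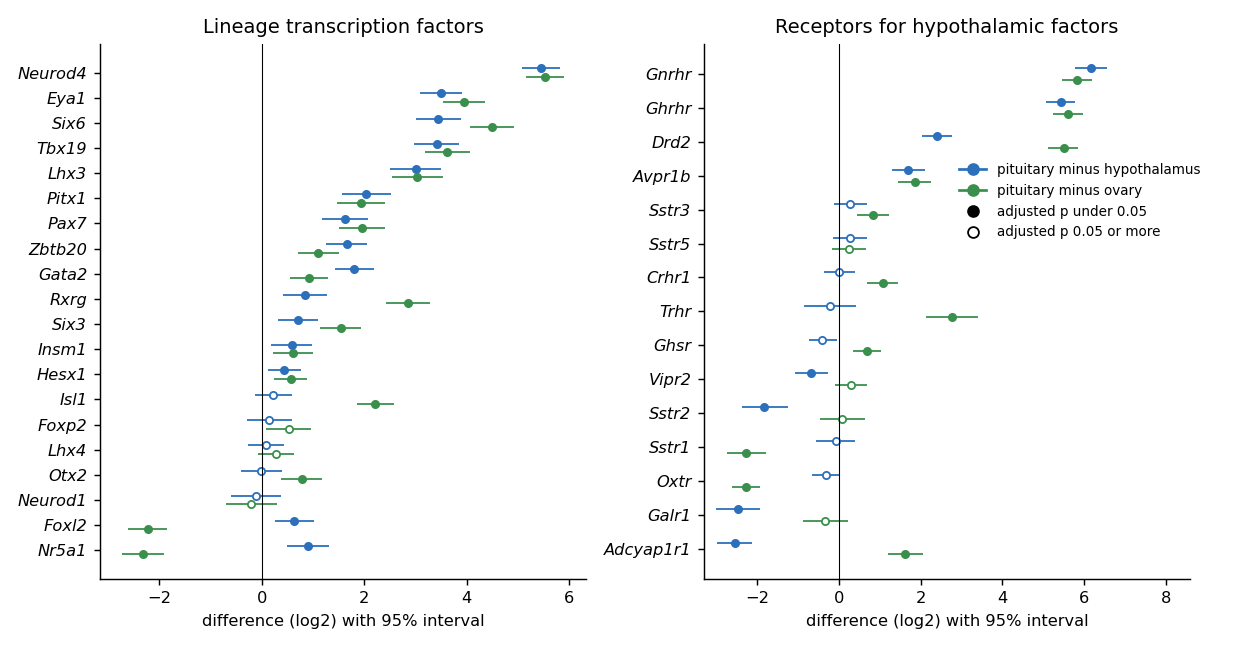
Differences with 95% intervals (log2) of the 20 lineage transcription factors and the 15 receptors, pituitary minus hypothalamus in blue and pituitary minus ovary in green; filled points passed the adjusted p threshold of 0.05. In the left panel 13 factors have both points filled to the right of 0, and in the right panel 4 receptors do.

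Marker lists of the hormone-producing cell types hold the hormone genes themselves, and Pomc, Tbx19 and Cga stand in more than 1 list, so their counts repeat values given above. All 4 measured somatotrope markers, all 3 lactotrope markers and all 4 melanotrope markers were higher than in both tissues, as were 4 of 6 gonadotrope, 4 of 5 thyrotrope and 3 of 6 corticotrope markers (7.32% of all genes). The members not yet described are given next. Pappa2, a protease that cleaves IGF-binding proteins, differed by 4.04 and 3.13. Angpt1, an angiopoietin listed with lactotropes, differed by 3.27 and 2.69. Dio2, the deiodinase that makes active thyroid hormone, read 8.51, 8.53, 8.85 and 8.56 in pituitaries, 4.94, 5.59, 4.33 and 6.20 in hypothalami and 5.05, 5.0, 5.45 and 4.81 in ovaries. Dio2 was uneven among hypothalami, and no hypothalamus value reached the pituitary range. Oacyl, listed with melanotropes, differed by 6.23 and 6.74. Among the corticotrope markers Gpc5 was lower than in hypothalamus (-2.72), and Tnnt1 passed neither test (-0.25 and -0.24).

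Genes of prohormone processing and dense-core granules separated pituitary from ovary more than from hypothalamus. Of 23 measured, 21 were higher than in ovary (17.7% of all genes) and 10 higher than in hypothalamus (18.1% of all genes). These 10 (43.5%, against 7.32% of all genes) exceeded both. The median difference was 3.42 against ovary and 0.13 against hypothalamus. Chgb, a granin that fills secretory granules, read 12.40, 12.33, 11.92 and 12.44 in pituitaries, 9.98, 9.68, 9.86 and 10.03 in hypothalami and 5.23, 4.79, 4.49 and 4.46 in ovaries. The 3 tissues did not overlap, and the differences were 2.38 ± 0.17 (SE, adjusted p = 1.11e-07) and 7.53 ± 0.17 (adjusted p = 2.90e-12). The related granin Chga differed by 1.5 and 6.21. Rab27a, a small GTPase of granule docking, differed by 3.08 and 1.97, and Pcsk1, the convertase that begins the cutting of Pomc, by 1.20 and 5.35. Scg2, Scg3, Scg5, Pam, Cadps2 and Slc30a8 were the other members higher than both. Cadps and Syt1, of neuronal vesicle release, were lower than in hypothalamus (-2.26 and -1.27) and higher than in ovary (3.96 and 3.42).

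The general secretory pathway showed the opposite balance. Of 27 measured genes of ER import, folding and transport, 24 were higher than in hypothalamus (18.1% of all genes) and 17 higher than in ovary (17.7%). Both tissues were exceeded by 16 (59.3%, against 7.32% of all genes), and none was lower than either. Medians were 1.22 against hypothalamus and 0.54 against ovary. Kdelr2, a receptor that returns escaped ER proteins, differed by 2.29 and 0.67. Ssr4, of the translocon-associated complex, read 10.29, 10.25, 10.76 and 10.40 in pituitaries, 8.84, 8.22, 8.84 and 8.12 in hypothalami and 9.27, 8.85, 9.61 and 9.41 in ovaries, with no overlap between any 2 tissues. Sec61b and Srpr, of the translocon and the signal recognition particle receptor, differed by 1.66 and 1.16, and by 1.40 and 0.87. Srp72, of the signal recognition particle, differed by 0.85 and 0.83, and Sec11c, of the signal peptidase, by 0.75 and 1.81. Without the ovary of the control low-ovulation mouse 10 of the 27 exceeded both.

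Nuclear receptors of the feedback hormones were divided. Of 12 measured, 5 were higher and 2 lower than in hypothalamus (18.1% and 19% of all genes). Against ovary 7 were higher and 3 lower (17.7% and 20.4% of all genes). Both tissues were exceeded by 5 (41.7%, against 7.32% of all genes), and 1 was lower than both (8.33%, against 6.27%). Esr1, the estrogen receptor alpha gene, read 9.19, 8.96, 8.33 and 8.82 in pituitaries, 6.42, 6.44, 6.16 and 6.40 in hypothalami and 6.99, 7.28, 7.16 and 6.88 in ovaries. Pituitary values lay above all 8 others, and the differences were 2.47 ± 0.17 (SE, adjusted p = 7.77e-08) and 1.74 ± 0.17 (adjusted p = 1.91e-06). Thrb, a thyroid hormone receptor, differed by 2.32 and 2.89. The vitamin D receptor Vdr differed by 1.73 and 0.97, the retinoic acid receptor Rarb by 1.16 and 1.72, and the mineralocorticoid receptor Nr3c2 by 0.46 and 1.46. The Nr3c2 call against hypothalamus was lost without the control high-ovulation mouse or either stressed mouse, and in the fit without the mouse as a block. Thra, the other thyroid hormone receptor, was lower than in hypothalamus (-1.32), and Esr2 (estrogen receptor beta) and Rara (a retinoic acid receptor) were lower than in ovary (-1.87 and -0.78). Rxra was lower than in both, with differences of -0.54 and -0.77, a call against hypothalamus that was lost under quantile normalization and without either high-ovulation mouse.

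Genes of pituitary stem and folliculostellate cells were called in both directions. Of 13 measured, 8 were higher and 4 lower than in hypothalamus (18.1% and 19% of all genes). Against ovary 8 were higher and 3 lower (17.7% and 20.4% of all genes). Both tissues were exceeded by 6 (46.2%, against 7.32% of all genes), and 1 was lower than both (7.69%, against 6.27%). Epcam, an epithelial adhesion molecule, read 10.69, 10.70, 10.51 and 10.80 in pituitaries, 4.74, 5.23, 4.92 and 5.32 in hypothalami and 6.89, 6.77, 7.04 and 6.87 in ovaries, and differed by 5.63 and 3.78. The keratin gene Krt18 differed by 3.15 and 1.89, Cdh1 (E-cadherin) by 1.57 and 1.49, Cpxm2 by 3.39 and 2.16, and Lcn2 (lipocalin 2) by 3.08 and 1.23. Aldh1a2, an enzyme of retinoic acid synthesis, was higher than in hypothalamus (1.51) and lower than in ovary (-2.36). The same was true of Rbpms, an RNA-binding protein gene (2.93 and -0.54), whose call against ovary was lost without the control high-ovulation mouse or either stressed mouse. The stem cell factors Sox2 and Sox9 were lower than in hypothalamus (-1.17 and -1.30) and higher than in ovary (3.31 and 0.70), and Gfra2, a GDNF-family receptor, was lower than in hypothalamus (-3.80). The member lower than both was S100b, a calcium-binding protein gene that is also abundant in brain glia, at 3.91 to 4.58 in pituitaries, 8.88 to 9.50 in hypothalami and 4.50 to 5.54 in ovaries.

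The 25 genes with the largest excess over both tissues held 9 hormone or receptor genes or transcription factors already named. Hepacam2, an immunoglobulin-family adhesion gene, read 10.07, 9.95, 9.95 and 9.98 in pituitaries, 3.14, 3.58, 3.20 and 3.95 in hypothalami and 3.13, 3.80, 3.51 and 3.90 in ovaries. Its differences of 6.52 ± 0.17 (SE, adjusted p = 3.01e-11) and 6.40 ± 0.17 (adjusted p = 1.24e-11) were of the size seen for the hormones. Cldn9 and Cldn8, of tight junctions, differed by 5.21 and 5.65, and by 4.12 and 4.22. Rab25, an epithelial Rab GTPase, differed by 5.09 and 5.06.

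Enzymes and secreted or membrane proteins made up the rest of the 25. Klk1, a tissue kallikrein, differed by 5.88 and 5.08, and its relative Klk1b24 by 3.85 and 3.74. The cytochrome P450 gene Cyp2f2 differed by 4.40 and 5.10, and Inmt, a methyltransferase, by 3.77 and 4.01. Differences were 4.29 and 3.93 for Vwde, 4.24 and 3.88 for Esm1, a secreted proteoglycan, and 4.24 and 3.79 for Slurp2. They were 3.77 and 4.27 for Mia, 3.58 and 4.85 for Kcnh8, a potassium channel, and 3.54 and 4.32 for Elapor1. In each of the 25 genes the lowest pituitary value lay above the highest of the 8 others, which the rule for naming required.

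Of the miR-200 family, microRNAs known for holding cells in an epithelial state, 4 hairpin genes were looked at after their values had been seen. The arrays cover the hairpin genes, and mature microRNAs were not measured separately. These 4 hairpin genes were higher in pituitary than in both tissues, and other members of the family were not looked at. Mir200b read 6.41, 6.73, 6.00 and 6.11 in pituitaries, 4.60, 3.84, 2.97 and 4.04 in hypothalami and 4.02, 4.15, 3.71 and 3.77 in ovaries, a difference of 2.45 and 2.40. Mir200a differed by 1.28 and 1.02, Mir141 by 0.90 and 0.98, and Mir200c by 0.90 and 0.92. Mir141 read below the lower quartile of all genes on every array, and Mir200c on all arrays except 3 pituitaries. Their mature 3p forms in RefSeq (GRCm38.p6) are printed with the seed, bases 2 to 8, in capitals to show that these 4 fall into 2 seed groups.
mmu-miR-200b-3p: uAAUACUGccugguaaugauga
mmu-miR-200c-3p: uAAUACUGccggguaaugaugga
mmu-miR-200a-3p: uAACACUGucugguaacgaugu
mmu-miR-141-3p: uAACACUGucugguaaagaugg
The pair miR-200b and miR-200c shares the seed AAUACUG, and the pair miR-200a and miR-141 shares AACACUG. The mature forms of miR-200b and miR-200a lie on the minus strand at chr4:156055685-156055706 and chr4:156054911-156054932, and those of miR-200c and miR-141 on the minus strand at chr6:124718324-124718346 and chr6:124717917-124717938. Each genomic pair thus holds both seeds. Zeb1, a repressor of epithelial genes that this family is known to target, passed neither test, with differences of -0.44 (adjusted p = 0.0535) and -0.14 (adjusted p = 0.542).

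Imprinted genes, which are expressed from 1 parental copy, were called in both directions. Of 19 measured, 10 exceeded both tissues (52.6%, against 7.32% of all genes) and 2 were lower (10.5%, against 6.27%). Medians were 0.59 and 2.01. Mest, a hydrolase-like gene, read 10.97, 11.13, 10.91 and 11.20 in pituitaries, 8.63, 8.71, 8.70 and 8.81 in hypothalami and 7.13, 7.08, 6.94 and 6.92 in ovaries. The 3 tissues did not overlap, and the differences were 2.34 ± 0.14 (SE, adjusted p = 2.06e-08) and 4.03 ± 0.14 (adjusted p = 1.14e-10). Plagl1, a zinc finger factor, differed by 2.37 and 2.78, Asb4 by 2.38 and 4.40, and Dlk1, a Notch-like membrane protein gene, by 1.87 and 4.52. Grb10, an adaptor that restrains insulin signalling, was lower, with differences of -2.11 and -1.93, with all pituitary values below the 8 others. Peg10 was lower, with differences of -1.04 and -0.66, and its call against ovary was lost without either low-ovulation mouse.

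The imprinted region that runs from Dlk1 to Dio3 on chromosome 12 carries a large microRNA cluster made from the maternal copy together with the long noncoding RNAs Meg3 and Rian. Of 43 microRNA genes measured there, a set chosen after values were seen, 31 (72.1%) were higher in pituitary than in both tissues and none lower, with medians of 1.0 and 2.07. Among the 435 other microRNA genes 33 were higher (7.59%) and 1 lower, with medians of 0.16 and 0.11. Mir493 read 9.42, 8.82, 7.73 and 7.81 in pituitaries, 6.17, 6.49, 6.19 and 6.45 in hypothalami and 4.08, 3.33, 3.64 and 3.37 in ovaries. Rian differed by 1.22 and 4.60 and Meg3 by 0.84 and 1.38. The mean of the 43 genes was 6.59, 6.20, 5.47 and 5.65 in pituitaries, 5.14, 4.97, 4.99 and 5.12 in hypothalami and 3.83, 3.81, 3.83 and 3.79 in ovaries. Both stressed pituitaries lay above both control pituitaries, by 1.12 between the high-ovulation mice and 0.55 between the low-ovulation mice. The pools went the other way, with 5.44 in the pool of stressed pituitaries and 6.41 in that of controls. Without the stressed high-ovulation mouse 20 of the 43 exceeded both tissues.

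**Figure D4:**
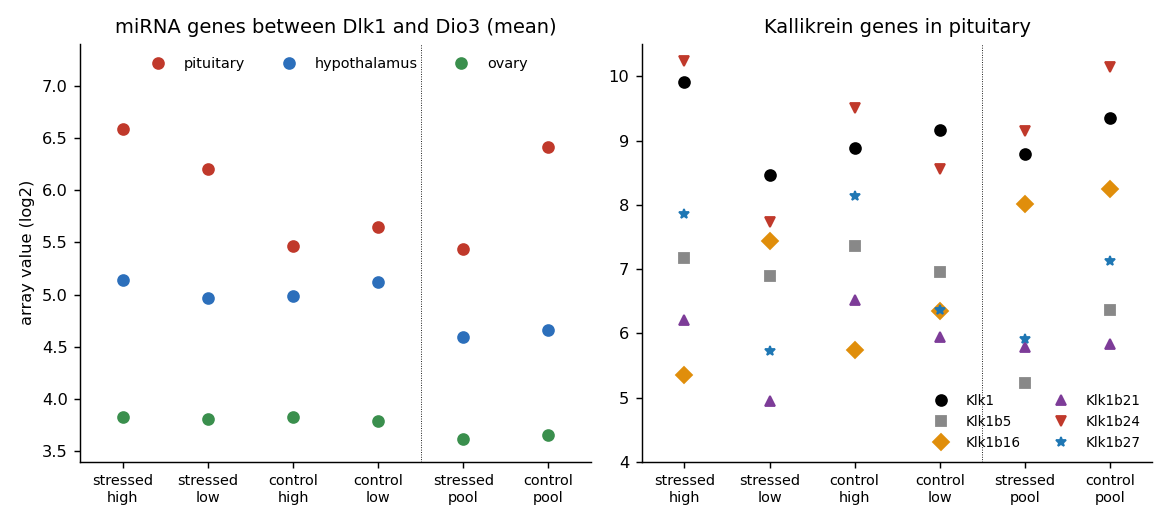
Left, the mean array value (log2) of 43 microRNA genes between Dlk1 and Dio3 for pituitary (red), hypothalamus (blue) and ovary (green) in each single mouse and pool. Right, array values (log2) of 6 kallikrein genes in the same pituitary arrays; Klk1b27 and Klk1b24 lie higher in high-ovulation than in low-ovulation mice of the same treatment, and Klk1b16 lower.

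Long noncoding RNA genes were called mostly in 1 direction. Of 1926 long noncoding RNA genes 176 (9.14%) were higher in pituitary than in both tissues and 8 (0.415%) lower, while 18964 protein-coding genes divided into 1342 higher (7.08%) and 1375 lower (7.25%). The split was 169 against 12 after quantile normalization and 171 against 9 after centring each array on its median. Odorant and vomeronasal receptor genes, known from sensory neurons of the nose, gave 46 higher (3.30%) and 4 lower among 1394. The lower quartile of all genes was 4.12 to 4.18 in pituitaries, 4.03 to 4.13 in hypothalami and 4.04 to 4.08 in ovaries, and its part in this split was not tested.

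Genes lower in pituitary than in both tissues included enzymes of lipid and sulfate metabolism and secreted proteins. Acsbg1, an acyl-CoA synthetase, read 5.34, 5.05, 4.81 and 5.47 in pituitaries, 8.81, 8.70, 8.75 and 8.55 in hypothalami and 9.64, 9.88, 9.83 and 9.88 in ovaries, a difference of -3.54 ± 0.17 (SE, adjusted p = 2.55e-09) and -4.64 ± 0.17 (adjusted p = 1.44e-10). Scd1, the stearoyl-CoA desaturase that makes monounsaturated fatty acids, read 6.03, 7.18, 6.17 and 6.93 in pituitaries, 9.59, 10.09, 10.17 and 10.21 in hypothalami and 10.79, 11.27, 10.48 and 10.53 in ovaries. Serpina3n, a serine protease inhibitor, read 5.67, 4.38, 5.23 and 6.07 in pituitaries, 9.41, 9.56, 9.54 and 9.66 in hypothalami and 10.03, 10.52, 10.36 and 9.61 in ovaries. None of these genes overlapped between pituitary and the other tissues, which the rule for naming required.

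Acss1, a mitochondrial acetyl-CoA synthetase, was lower, with differences of -2.80 and -3.59. Papss2, which makes the sulfate donor of sulfated macromolecules, was lower, with differences of -2.89 and -3.22, and Gsto1, a glutathione transferase, with -2.58 and -3.51. Nts, the neurotensin precursor, was lower, with differences of -5.11 and -3.06, Cygb (cytoglobin) with -2.69 and -3.23, and Gucy1a1, a subunit of the nitric oxide receptor, with -2.55 and -3.28. Sv2c, Shisa6 and Tmem178 were lower, with differences of -2.94 and -2.89, -3.20 and -3.17, and -2.74 and -3.58. The matrix proteins or proteases Spon1, Tnfaip6 and Htra1 were lower, with differences of -2.87 and -2.88, -2.62 and -3.08, and -2.58 and -4.05.

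Several respiratory chain genes were lower than in both tissues. Of 18 measured, 7 were lower (38.9%, against 6.27% of all genes) and 1, Ndufa1, was higher (1.13 and 0.94), with medians of -0.61 and -0.33. Cox5a, of cytochrome c oxidase, read 7.84, 8.12, 8.37 and 8.28 in pituitaries, 10.13, 9.98, 10.21 and 9.99 in hypothalami and 9.73, 9.51, 9.69 and 9.82 in ovaries, and was lower, with differences of -1.93 and -1.53. Uqcrc1, of complex III, was lower, with differences of -1.06 and -0.86. Sdhb, of succinate dehydrogenase, was lower, with differences of -0.92 and -0.85, Atp5b, of ATP synthase, with -0.67 and -0.61, and Cycs, cytochrome c, with -0.81 and -0.51. The Cycs call against ovary was lost without any one of 3 mice (all but the control high-ovulation mouse). After quantile normalization 4 genes of the list were lower than both. Cytosolic ribosomal protein genes were higher than in hypothalamus in 12 of 18 (against 18.1% of all genes). None passed against ovary, where 17.7% of all genes were higher and 20.4% lower. Their medians were 0.51 and -0.01.

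Genes of neurons and glia were far lower in pituitary than in hypothalamus, and differed from ovary in both directions. All 18 measured neuron genes were lower than in hypothalamus (against 19% of all genes), and 12 were higher than in ovary (against 17.7%). Their medians were -2.68 and 0.79. Slc17a6, a vesicular glutamate transporter, read 8.02 to 8.52 in pituitaries, 9.66 to 10.63 in hypothalami and 3.97 to 4.93 in ovaries, while Shank3, a postsynaptic scaffold, was the member lower than both (-1.80 and -0.88). All 11 oligodendrocyte genes were lower than in hypothalamus with a median of -3.72, and 2 were higher than in ovary. All 10 astrocyte genes were lower than in hypothalamus, 6 were higher than in ovary and 3 lower than in both (30.0%, against 6.27% of all genes).

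Hypothalamic peptide genes were lower than in hypothalamus in 15 of 17 (against 19% of all genes). Avp, vasopressin, read 9.89, 9.74, 11 and 9.87 in pituitaries, 11.92, 11.88, 12.08 and 11.67 in hypothalami and 7.55, 6.99, 7.14 and 7.53 in ovaries, and Oxt, oxytocin, read 6.64, 6.11, 7.23 and 6.92 in pituitaries, 9.89, 9.52, 10.04 and 8.98 in hypothalami and 4.57, 4.06, 4.60 and 4.70 in ovaries. Both messages stood between the other tissues without overlap. They are the peptides that posterior lobe axons release. Gal, galanin, which lactotropes also make, was the member higher than both, at 10.62, 9.66, 9.37 and 10.03 in pituitaries, 9.09, 8.49, 8.85 and 8.43 in hypothalami and 4.77, 5.04, 4.81 and 5.24 in ovaries. Penk, proenkephalin, was lower than in both (-2.81 and -1.36). Of 8 pituicyte genes, the glia of the posterior lobe, 4 were lower than in hypothalamus and 3 lower than in ovary. Over all genes these shares were 19% and 20.4%. The only higher call in either comparison was Scn7a, higher than in both (1.42 and 1.0), and Gja1 was lower than in both (-2.45 and -3.27). Each is 12.5% of the list, against 7.32% and 6.27% of all genes.

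Ovarian genes were far below the ovarian level in pituitary. All 13 measured genes of ovarian steroid synthesis and granulosa cells were lower than in ovary (against 20.4% of all genes). Their median difference was -4.93 from ovary and 0.08 from hypothalamus. The 12 oocyte genes were all lower than in ovary with a median of -1.22. Vascular and stromal genes were lower than in ovary as a rule (10 of 12 endothelial, 12 of 12 macrophage and 10 of 12 fibroblast or mural genes). Against hypothalamus 7, 4 and 6 of them were higher (18.1% of all genes), and 2, 3 and 2 were lower (19% of all genes). Plvap, which forms the diaphragms of fenestrated capillaries, was the endothelial gene higher than both, at 7.83, 8.29, 7.52 and 8.41 in pituitaries, 6.64, 6.41, 6.72 and 6.30 in hypothalami and 6.41, 6.63, 6.93 and 6.91 in ovaries. Cldn5, a tight junction gene of the blood-brain barrier endothelium, was lower than both (-1.88 and -2.53), and so was the VEGF receptor Flt1 (-1.10 and -1.19). Cell cycle genes took a middle place. Against hypothalamus 17 of 22 were higher (18.1% of all genes), and 21 of 22 were lower than in ovary (20.4% of all genes).

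Immediate early genes were called in both directions. Of 22 measured, 8 were higher and 4 lower than in hypothalamus (18.1% and 19% of all genes). Against ovary 5 were higher and 8 lower (17.7% and 20.4% of all genes). Neither comparison gave a call for 4 of them, against 46.2% of all genes. Against both tissues 3 were higher (13.6%, against 7.32% of all genes) and 2 lower (9.09%, against 6.27%). Nr4a2, an orphan nuclear receptor, differed by 1.68 and 2.60, its relative Nr4a3 by 0.81 and 1.29, and Btg2, an antiproliferative gene, by 2.61 and 0.92. Jun was lower, with differences of -0.90 and -1.37 and Ier3 with -0.93 and -2.72.

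**Figure D5:**
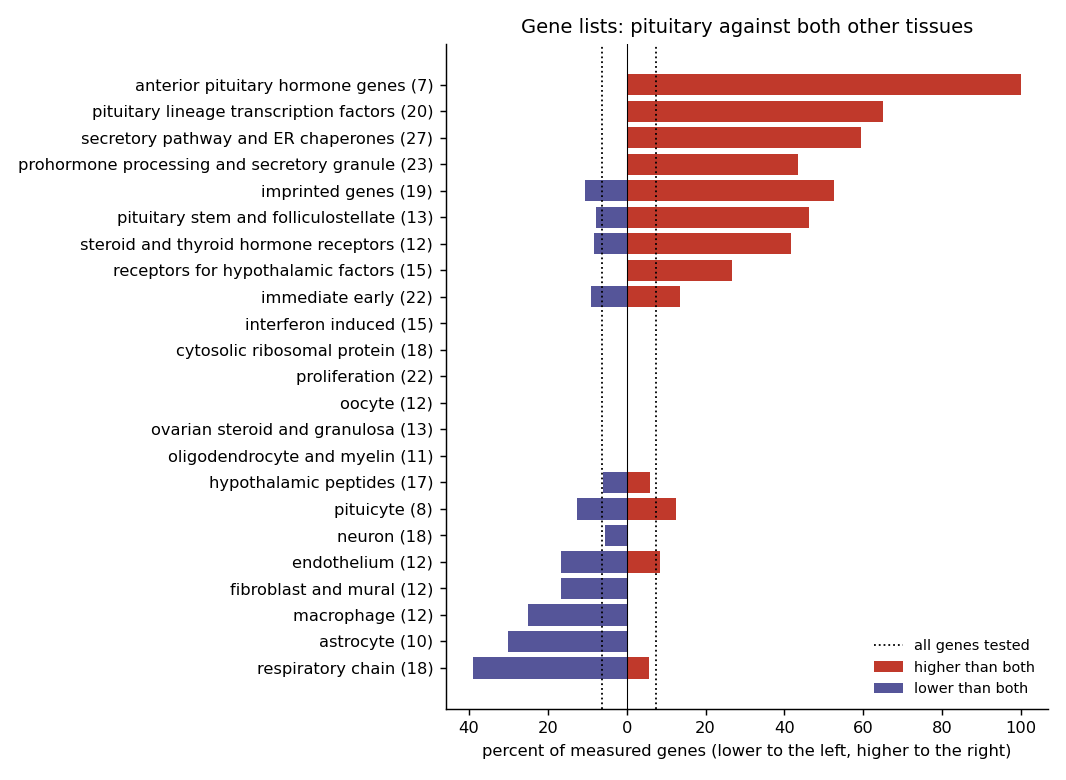
Share of the measured genes of each list (number in brackets) that were higher (red, to the right) or lower (blue, to the left) in pituitary than in both other tissues; the dotted lines mark all genes tested, 7.32% and 6.27%. The hormone genes reach 100% to the right and the respiratory chain 38.9% to the left.

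A set of genes higher in pituitary than in ovary was not told apart between pituitary and hypothalamus. Of the genes higher in pituitary than in ovary, 1344 (6.06% of all) had no call against hypothalamus. Resp18, a secretory granule gene, read 11.57, 11.51, 11.64 and 11.68 in pituitaries, 11.47, 11.42, 11.36 and 11.06 in hypothalami and 4.85, 4.57, 4.90 and 4.30 in ovaries. Syt4, a synaptotagmin, exceeded ovary by 6.94, Calb1, a calcium-binding protein gene, by 6.03, and Snap25, of the vesicle fusion machinery, by 5.76. Elmod1, Rit2, Tmem59l, Fam155a, Gdap1 and Gabra2 exceeded ovary by 6.20, 5.72, 5.74, 5.80, 5.44 and 5.34. For these 10 genes the difference from hypothalamus did not pass, and that does not show equal levels. The 95% interval against hypothalamus was -0.06 to 0.60 for Resp18 and -1.44 to 0.07 for Snap25.

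Another 1634 genes (7.37%) were higher in pituitary than in hypothalamus with no call against ovary. Txnip, an inhibitor of thioredoxin, read 10.79, 10.25, 10.27 and 10.64 in pituitaries, 7.35, 6.87, 6.78 and 7.4 in hypothalami and 10.30, 10.71, 10.52 and 10.56 in ovaries. Akr1c14, a steroid-reducing enzyme, exceeded hypothalamus by 3.97, the matrix gene Dcn (decorin) by 3.08 and Socs2, an inhibitor of growth hormone signalling, by 3.03. Slc44a3, Dap, Ammecr1, Ogn, S100a11 and Anxa4 exceeded it by 3.60, 3.55, 3.25, 3.33, 3.17 and 3.05.

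The median SD over the 4 pituitaries was 0.25 over all genes. The largest spreads among named genes higher than both belonged to kallikreins and a few others. Klk1b27 read 7.85, 5.72, 8.14 and 6.37 in pituitaries, 3.60, 4.14, 3.73 and 4.15 in hypothalami and 3.55, 3.53, 3.88 and 3.48 in ovaries, and Klk1b24 read 10.24, 7.73, 9.51 and 8.56 in pituitaries. In both genes the high-ovulation mouse read above the low-ovulation mouse within each treatment. Klk1b16 had the reverse order with 5.35, 7.44, 5.74 and 6.34 in pituitaries. Plet1 read 8.23, 6.70, 5.83 and 6.71 and Zfp972 read 6.72, 5.34, 4.56 and 5.11 in pituitaries, each highest in the stressed high-ovulation mouse. Of 24 kallikrein genes measured, a family chosen after its values were seen, 8 exceeded both tissues (33.3%, against 7.32% of all genes). These genes are closely similar copies, so signal may be shared among their probes.

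Whether the pituitary excess differed by treatment or ovulation class was tested with interaction terms, and 0 genes passed in either. Without adjustment, p under 0.05 was reached by 5.33% (against hypothalamus) and 5.10% (against ovary) of genes for stress, and by 9.53% and 4.80% for ovulation class. The smallest adjusted p for stress was 0.06, for Slc6a3, the dopamine transporter gene, which read 5.33, 5.34, 5.96 and 5.5 in pituitaries and 8.09, 8.68, 6.12 and 5.86 in hypothalami. The stressed hypothalami, not the pituitaries, stood apart. In 4 of 5 alternative settings 1 gene passed for stress against hypothalamus. For ovulation class the smallest was 0.218, for Klk1b27, with a term of 2.43 ± 0.32 (SE). Interferon-induced genes set 1 mouse apart in all 3 tissues. Their mean over 15 genes was 7.73 in the stressed high-ovulation pituitary against 6.06 to 6.24 in the other 3. The same mouse was highest in hypothalamus (5.70 against 5.04 to 5.12) and ovary (8.68 against 6.78 to 6.83). Cell cycle genes averaged 5.40 and 5.88 in stressed and 6.16 and 6.32 in control pituitaries, while the pools gave 6.16 stressed and 5.88 control.

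In the pools, most genes kept their side. Of the 1623 genes higher than both tissues, 1267 were higher in the stressed pituitary pool than in both other stressed pools (78.1%), and 1404 in the control pools (86.5%). Over all genes the shares were 29.8% and 29.7%. For the 539 genes with a 2-fold excess the counts were 489 and 516. Of the 1391 genes lower than both, 1117 (80.3%) and 1161 (83.5%) kept the sign in stressed and control pools, against 25.8% and 29.3% of all genes. The ovarian steroid and granulosa list averaged 7.36 in the pool of stressed pituitaries and 4.85 in that of control pituitaries, against 4.78 to 5.06 in single pituitaries and 9.51 to 9.89 in single ovaries. The same list averaged 6.52 in pooled stressed hypothalami and 4.86 in pooled control hypothalami, against 4.60 to 5.06 in single hypothalami. Neuron genes averaged 7.47 in pooled stressed and 7.04 in pooled control pituitaries, against 6.30 to 6.62 in single pituitaries, and astrocyte genes 7.09 and 6.62, against 6.06 to 6.53. Hormone genes averaged 7.31 in pooled stressed ovaries and 6.88 in pooled control ovaries, against 4.50 to 4.85 in single ovaries. Each pool is 1 array, and these values carry no test.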

How the data were processed

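RNA of 12 single-mouse samples was hybridized to Mouse Gene 2.0 ST arrays of Affymetrix. The authors deposited log2 signals per transcript cluster; per the submitters' processing notes they used the Transcriptome Analysis Console, and its version, background correction and normalization are not given in the sources used here. Base 2 follows from the highest value, 13.66, which lies above 11.09, the natural log of the largest 16-bit reading, and below 16, its log2. Of 41345 clusters, 23521 had 1 gene, and the cluster with the highest mean stood for each of 22180 genes. No 2 of the 18 arrays held identical values. The file gives no scan date, batch or detection call, and the number of arrays limits the precision.

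Differences were tested with limma 3.58.1 in R 4.3.3 on the values as deposited, with tissue and mouse in the model, two-sided, and Benjamini-Hochberg adjustment over all genes. The pairing comes from the labels, which give the 3 tissues of each mouse. Values after ± are standard errors. Pairs of differences are pituitary minus hypothalamus, then pituitary minus ovary. Tested on simulated data, the call against both tissues recovered 93% of genes changed 2-fold and 100% of those changed 4-fold, with 3 false calls among 196. There 100 genes of each size were changed equally against both tissues, and no other gene differed between tissues. In the data many genes differ from hypothalamus or ovary alone, so these rates need not carry over.

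Genes were named by rule: the 25 higher and 15 lower with the largest smaller difference and no overlap of pituitary with the other arrays, all hormone genes, transcription factors, receptors and cell type markers, up to 6 members of every other list, up to 10 genes per direction not told apart from 1 tissue, the smallest interaction p-values and the 5 largest pituitary SDs. Predicted, clone, small RNA, odorant receptor and antigen receptor names were left out of the ranked genes. The kallikreins, microRNA genes and Zeb1 were chosen after values were seen, and the members and lists with earlier results of these data known. Alternatives were no mouse block or a random one, other scalings, a filter on low values, averaged clusters, pools added, each treatment alone, array weights, trended variances and each mouse or array left out.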

Additional observations from a re-analysis of the deposited data

Results flagged for a closer look

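Among 123 groups of 4 arrays examined, 11 held an array far from the other 3, where chance gives about 5% of groups. In pituitary these were Avp at 11, Dio2 at 8.85 and Gnrhr at 9.25, all in the control high-ovulation mouse, and Lhb at 5.84 in the stressed high-ovulation mouse. In hypothalamus they were Esr1 at 6.16 and Plet1 at 5.34 in the control high-ovulation mouse, Fshb at 4.74 in the control low-ovulation mouse and Tshb at 5.29 in the stressed low-ovulation mouse. The mean of the 15 interferon-induced genes was flagged above the other mice in the stressed high-ovulation mouse in all 3 tissues. It was 7.73 in pituitary, 5.70 in hypothalamus and 8.68 in ovary.

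In 2 gene sets the stress minus control difference had the same sign in both pairs of single pituitaries and the opposite sign in the pools. For the 43 microRNA genes between Dlk1 and Dio3 it was 1.12 and 0.55 in single mice and -0.97 in the pools. For cell cycle genes it was -0.76 and -0.44 in single mice and 0.28 in the pools. These differences between single mice and pools were not tested.

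Pituitary hormone messages were read in the ovary pools, which the tests did not use. Prl read 11.44 in pooled stressed ovaries and 10.82 in pooled control ovaries, against 3.63 to 5.09 in single ovaries. Gh read 10.46 in pooled stressed ovaries and 10.08 in pooled control ovaries, against 5.01 to 5.90 in single ovaries.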

How the results depend on the processing

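Leaving out each mouse or array in turn gave 1235 to 1589 genes higher than both tissues and 1026 to 1334 lower. Fits to 1 treatment, with 2 mice a tissue, called fewer genes. Control mice alone gave 954 higher and 693 lower than both, 2531 higher than hypothalamus and 2950 lower than ovary. Stressed mice alone gave 840 higher and 644 lower than both, 2235 higher and 2744 lower than hypothalamus, and 2408 higher and 2980 lower than ovary. A difference of at least 2-fold left 539 and 322 genes, and a test against a 2-fold difference 190 and 95. Without the mouse as a block the pairing changed little, with 1602 genes higher and 1381 lower than both and no list count moved by over 1.5 times. For stress against hypothalamus, 1 gene passed under quantile normalization, the filter on low values, trended variances and the random block, and for ovulation class 1 passed under that filter. Quantile normalization left 0 nuclear receptors, 1 imprinted gene, 1 fibroblast or mural gene and 4 respiratory genes lower than both. Without the 2 hypothalami with high Prl and Gh, a setting chosen after seeing the data, 0 nuclear receptors and 1 fibroblast or mural gene were lower than both. Over left-out mice or arrays, the secretory pathway had 10 to 17 genes higher, and genes lower numbered 0 to 2 nuclear receptors, 0 to 1 stem cell genes, 1 to 2 imprinted genes, 1 to 2 fibroblast or mural genes and 4 to 7 respiratory genes.

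Of 257 differences printed for named genes, those of 4 genes against hypothalamus changed sign, none of them called. Foxp2 was -0.25 in control mice and -0.07 with pools added, Lhx4 was -0.02 in control mice, and Neurod1 was 0.29 in control mice and 0.11 without the 2 hypothalami. Otx2 was 0.05 with array weights, 0.02 after median centring and 0.07 in stressed mice. With mice or arrays left out they ranged over -0.09 to 0.29 for Foxp2, -0.07 to 0.20 for Lhx4, -0.28 to 0.21 for Neurod1 and -0.17 to 0.15 for Otx2. In 130 values a call was lost and in 13 one was gained. Readings near the lower quartile of all genes have no detection call behind them, so small differences there are the least certain.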
